A study of Mus musculus with 6 samples.

Results

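The genes described here are 10 components of the circadian clock, taken by GENCODE vM21 symbol: Arntl, Clock, Per1, Per2, Per3, Cry1, Cry2, Nr1d1, Nr1d2 and Dbp. All 10 passed the filter on low counts, among 16430 genes tested in 6 libraries of polyadenylated RNA from mouse pancreatic islets. Each library held handpicked islets of 1 male C57BL/6 mouse at postnatal day 24, from 3 mice labelled control and 3 labelled Dpy30 knockout. The Dpy30 protein belongs to the core of the enzyme complexes that methylate lysine 4 on histone H3. The sources used here give no Cre line, no deleted exons, no control genotype beyond its name and no time of day of islet collection.

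The mammalian clock is a feedback loop of transcription. The proteins of Clock and Arntl (also called BMAL1) bind E-box elements as a pair and switch on the Per and Cry genes, whose proteins then repress that pair. In a second loop the nuclear receptors encoded by Nr1d1 and Nr1d2 (REV-ERB) repress Arntl through elements that ROR receptors use to activate it, and Dbp with its relatives acts through D-box elements. In islets the loop is known for timing insulin secretion over the day, and in most tissues Arntl RNA peaks when Nr1d1, Dbp and Per RNA are low.

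Promoter windows of RefSeq on GRCm38.p6, from 250 bases before to 50 bases after a start, were found for 9 of the 10 genes, all but Per2. Those of Arntl and Per3 are shown because these genes were called between groups, and those of Per1 and Cry1 because they hold the E-box that Clock and Arntl are known to bind and were not called. Each is written from 5′ to 3′ on the strand of the gene, and capitals mark the motif matches. For Arntl the second of its windows, chr7:113207261-113207560 on the plus strand, is given, for Per3 chr4:151044616-151044915 on the minus strand, for Per1 the first window, chr11:69098699-69098998 on the plus strand, and for Cry1 chr10:85185005-85185304 on the minus strand.
Arntl: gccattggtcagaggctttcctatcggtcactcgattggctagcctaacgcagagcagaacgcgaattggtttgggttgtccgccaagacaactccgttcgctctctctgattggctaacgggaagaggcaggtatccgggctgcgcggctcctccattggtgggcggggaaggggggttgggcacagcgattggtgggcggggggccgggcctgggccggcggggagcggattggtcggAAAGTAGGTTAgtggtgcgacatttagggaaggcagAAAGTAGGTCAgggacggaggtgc
Per3: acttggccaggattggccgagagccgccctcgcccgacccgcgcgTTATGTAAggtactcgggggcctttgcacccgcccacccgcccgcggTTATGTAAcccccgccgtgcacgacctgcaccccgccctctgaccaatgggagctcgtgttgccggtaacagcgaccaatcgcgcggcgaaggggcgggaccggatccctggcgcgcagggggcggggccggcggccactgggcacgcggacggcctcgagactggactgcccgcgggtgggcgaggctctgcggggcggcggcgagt
Per1: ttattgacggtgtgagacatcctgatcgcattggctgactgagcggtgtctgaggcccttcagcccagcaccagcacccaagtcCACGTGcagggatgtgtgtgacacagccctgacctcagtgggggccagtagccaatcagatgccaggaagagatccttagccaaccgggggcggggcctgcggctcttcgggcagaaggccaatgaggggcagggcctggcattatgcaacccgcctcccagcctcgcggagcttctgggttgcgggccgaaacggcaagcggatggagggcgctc
Cry1: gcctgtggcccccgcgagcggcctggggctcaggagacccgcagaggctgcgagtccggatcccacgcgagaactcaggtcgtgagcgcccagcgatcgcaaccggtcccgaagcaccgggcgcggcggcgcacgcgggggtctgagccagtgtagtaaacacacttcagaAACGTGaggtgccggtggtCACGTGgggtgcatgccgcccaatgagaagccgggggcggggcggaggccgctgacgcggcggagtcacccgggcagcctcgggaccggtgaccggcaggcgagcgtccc

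Both strands were searched for the E-box CACGTG, the E-box variant CACGTT, the D-box as TTATGTAA or TTACGTAA, the REV-ERB and ROR element known as RRE, and the cAMP element TGACGTCA. The letters of RRE were chosen to take the known sites of Arntl itself. In the Arntl window it matched 2 times, as AAAGTAGGTTA starting 10 bases before the start and as AAAGTAGGTCA from base 27, counting the start as base 1, and 0.0609% of 32851 windows held such a match. The Per3 window held TTATGTAA 2 times, 205 and 158 bases before the start. That motif was in 0.938% of all windows, and 7 of the 32851 windows held 2 or more. CACGTG stood 166 bases before the start in Per1 and 60 bases before it in Cry1, and in 7.15% of windows. CACGTT, in 4.68% of windows, matched on the minus strand in the Cry1, Cry2 and Nr1d1 windows, where it reads AACGTG. The cAMP element (1.79% of windows) and TTACGTAA (0.119%) had no match in any window of these genes, and the windows of Clock, Nr1d2 and Dbp held none of the motifs. The matches overlap no other motif searched, and they describe letters, not bound sites.

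The libraries held 17131515 to 25354384 estimated reads. Transcripts that skip exon 4 of Dpy30 took 3.15% ± 2.46 of its reads in control and 81.2% ± 0.841 in knockout islets (SD, n = 3 each), so the libraries go with their labels. In CPM, which are counts scaled to a common library size, the predicted gene Gm42418 reached 158399 in knockout replicate 2 and 1015 to 2145 in the other libraries. The islet label fits the hormone genes, since 10 beta cell markers summed to 160486 to 265065 CPM in control and 71651 to 121954 CPM in knockout libraries. Alpha cell markers summed to 36478 to 65611 and 23996 to 28905 CPM, and delta and PP cell markers to 7588 to 10511 and 2892 to 3352 CPM. By edgeR's adjusted p below 0.05, which called 5.84% of all genes lower and 9.95% in either direction, 3 of 10, 3 of 7 and 4 of 5 of these markers fell. With the replicate number as a block, which called 7.86% of all genes lower, 5, 2 and 5 did. Among markers of other cells, sums in control and knockout libraries were 992 to 3388 and 2309 to 14532 CPM for acinar cells (12 of 13 genes past the filter), 610.0 to 759 and 816 to 1126 CPM for endothelial cells (8 of 8), and 369 to 656 and 585 to 1123 CPM for mesenchymal cells (9 of 9). They were 276 to 334 and 284 to 348 CPM for ductal cells (6 of 7), 137 to 263 and 131 to 178 CPM for immune cells (10 of 10), 16.7 to 30.7 and 23.6 to 40.7 CPM for Schwann cells (6 of 6), and 80.4 to 287 and 133 to 319 CPM for red blood cells (5 of 5). Of these markers, 3 endothelial, 1 mesenchymal, 1 ductal and 1 immune gene rose and 1 acinar, 1 ductal and 1 immune gene fell. The block called 9 of 9 mesenchymal and 5 of 8 endothelial markers higher, where it called 6.93% of all genes higher. No marker was at 0 in all libraries, the acinar factor Ptf1a ran from 0.0417 to 0.827 CPM, and the part of these cells in the clock values was not tested. In bulk RNA, fewer cells of a type and less RNA per cell cannot be told apart.

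Of the 10 clock genes, 1 rose and 1 fell in knockout islets. Arntl, the activator, was higher and Per3, a repressor of the period family, was lower in all 3 knockout libraries than in any control library. Across all genes the same test called 9.95%, with 4.1% higher and 5.84% lower, at a Benjamini-Hochberg adjusted p below 0.05 in edgeR. The share called among the clock genes can be read only against this background. The log2 fold change was below 0 for 7 of the 10, with a median of -0.51, against 8126 of 16430 and a median of 0.0060 over all genes tested. Without control replicate 1 it was below 0 for 5 of the 10, with a median of 0.056. Without knockout replicate 1 it was below 0 for 9 of the 10, with a median of -0.96. In the group-only fit the lean of the 10 genes to lower values thus moved with which replicate 1 library was left out. Groups did not overlap in 3 of the 10 (Arntl, Per3 and Dbp), and in 34.8% of all genes tested (17.6% with the higher and 17.2% with the lower values in knockout).

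**Figure D1:**
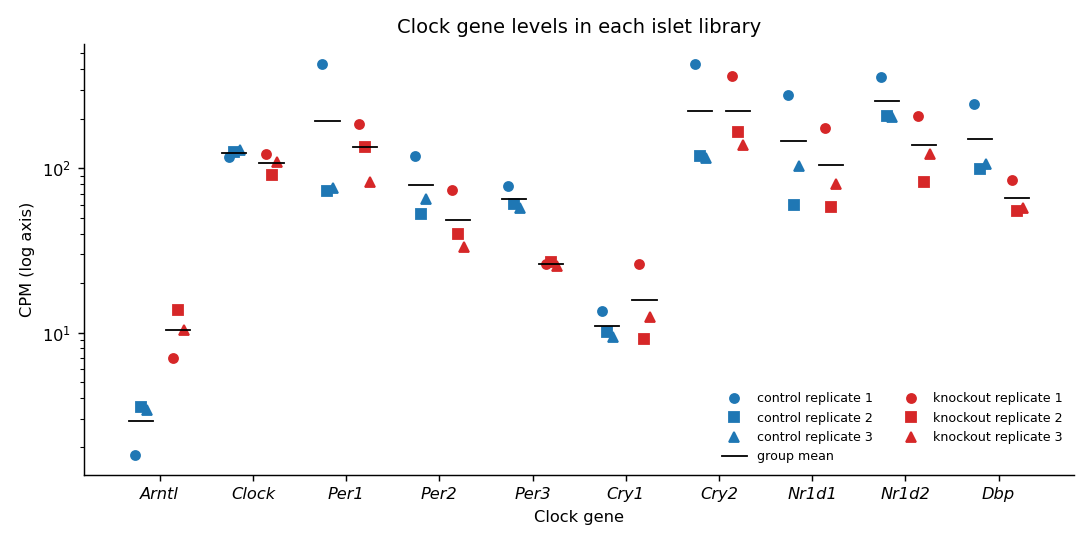
CPM of each clock gene (horizontal axis) in each of the 6 libraries on a log axis, blue for control and red for knockout, with 1 symbol per replicate number and black bars for group means. Arntl runs from 1.79 to 3.53 CPM in control and from 7.02 to 13.7 CPM in knockout libraries, Per3 does the reverse, and circles (replicate 1) stand highest in both groups for 7 genes.

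Of the activators, Arntl changed and Clock did not pass the test. Arntl (ENSMUSG00000055116.8, chromosome 7, 113207465 to 113314126, plus strand, GRCm38) read 1.79, 3.53 and 3.37 CPM in control replicates 1 to 3 and 7.02, 13.7 and 10.3 CPM in knockout replicates 1 to 3. All knockout libraries lay above all control libraries, and replicate 1 was the lowest of its group in both. In edgeR the log2 fold change was 1.83, with an SE of 0.35 and an adjusted p of 0.0173. These values rest on few reads, 43, 82 and 82 in control and 175, 217 and 275 in knockout libraries. Leaving out control replicate 3, knockout replicate 2 or knockout replicate 3 ended the call, at adjusted p of 0.0517, 0.0516 and 0.0593 and log2 fold changes of 1.95, 1.58 and 1.84. Fits with 1 library fewer called 4.36 to 7.88% of all genes. Clock (chromosome 5) read 117, 125 and 129 CPM in control and 122, 90.8 and 109 CPM in knockout libraries. The groups overlapped, and its log2 fold change of -0.21 (SE 0.15, adjusted p = 0.408) did not pass. Npas2, a relative that can replace Clock, was left out by the low count filter, at 0.209 to 0.345 CPM in control and 0.361 to 0.63 CPM in knockout libraries.

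Among the period genes, which repress Clock and Arntl, the level of Per3 was the most even within groups. Per3 (ENSMUSG00000028957.12, chromosome 4, 151003652 to 151044665, minus strand, GRCm38) read 78.0, 60.2 and 57.2 CPM in control and 26.3, 27.0 and 25.5 CPM in knockout libraries. Its group means were 65.1 ± 11.2 and 26.2 ± 0.735 CPM (SD, n = 3 each), a log2 fold change of -1.31 with an SE of 0.15 and an adjusted p of 0.00298 in edgeR. Each of the 6 fits without 1 library called it, with log2 fold changes of -1.40 to -1.17. Per1, which also answers quickly to cell stimulation, read 432, 72.2 and 76.2 CPM in control and 185, 135 and 82.7 CPM in knockout libraries. Control replicate 1 was 5.99 times the lowest control library, and the log2 fold change of -0.53 (SE 0.67, adjusted p = 0.656) became 0.85 (adjusted p = 0.165) without it. Per2 read 118, 52.9 and 64.8 CPM in control and 73.1, 39.8 and 33.0 CPM in knockout libraries. Its groups overlapped, and its log2 fold change of -0.69 (SE 0.37) had an adjusted p of 0.271.

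The fall of Per3 was seen in its coding transcript, and 1 of its minor transcripts was listed at 0 reads in every knockout library. The coding transcript Per3-201 held 1471, 1160 and 1182 estimated reads in control and 553, 371 and 621 in knockout libraries, which is 82.2% ± 3.17 and 87.6% ± 3.61 of the Per3 reads (SD, n = 3 each). Per3-204, a non-coding transcript that is annotated from within the gene to its 3′ end, held 137, 92.2 and 97.0 reads in control and 0 in knockout libraries. Were they counted reads, 0 among 654, 428 and 678 Per3 reads would allow shares of up to 0.459, 0.701 and 0.442%. The share in control islets was 6.97% ± 0.377 (SD, n = 3). With 3 reads per library taken as a floor, Per3-204 would be 32.4-fold lower in knockout islets. These floors cover counting error only. Per3-204 was singled out after its values were seen. Salmon divides by estimate the reads that fit several transcripts, so an estimate of 0 sets no bound on the fold. Such estimates also fell to 0 within a group, as for Dbp-203 (488, 184 and 0 reads in control and 212, 0 and 147 in knockout libraries).

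**Figure D2:**
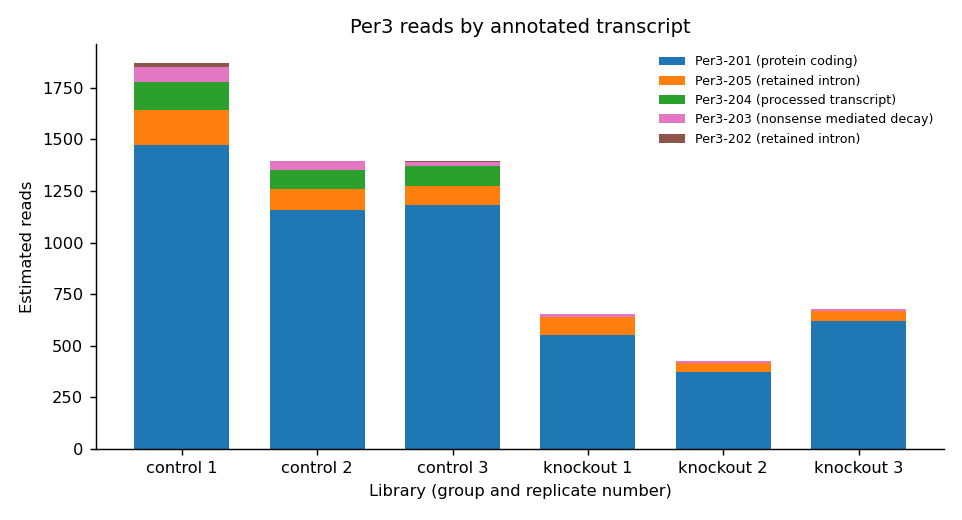
Estimated reads of Per3 (vertical axis) in each library (horizontal axis), stacked by annotated transcript. Per3-201 makes up most of every bar, and Per3-204 holds 137, 92.2 and 97.0 reads in the control libraries and 0 in the knockout libraries.

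The cryptochromes, partners of the period proteins in repression, did not pass the test. Cry1 read 13.5, 10.1 and 9.40 CPM in control and 26.1, 9.14 and 12.4 CPM in knockout libraries. Knockout replicate 1 stood above the rest, and the log2 fold change of 0.53 (SE 0.38, adjusted p = 0.399) was -0.034 without it (adjusted p = 0.948). Cry2 read 431, 119 and 115 CPM in control and 363, 165 and 138 CPM in knockout libraries, with group means of 222 ± 181 and 222 ± 123 CPM (SD, n = 3 each). In both groups replicate 1 was more than the sum of the other 2 libraries. The log2 fold change of Cry2 was 0.0012 (SE 0.57, adjusted p = 0.999).

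The nuclear receptors that repress Arntl were not called in the group-only fit. Nr1d1 read 278, 59.6 and 103 CPM in control and 176, 58.1 and 79.7 CPM in knockout libraries, with a log2 fold change of -0.49 (SE 0.59, adjusted p = 0.636). Its groups overlapped, and leaving out control replicate 1 gave 0.36 (adjusted p = 0.679). Nr1d1 shares 263 exon bases with the thyroid hormone receptor gene Thra on the other strand; the libraries were strand-specific, and the sources used here do not say whether the counting used strand. Nr1d2 read 356, 207 and 206 CPM in control and 208, 82.6 and 122 CPM in knockout libraries. Knockout replicate 1 reached the level of control replicates 2 and 3, and the log2 fold change of -0.90 (SE 0.36) had an adjusted p of 0.151. Dbp, the D-box activator driven by the loop, read 245, 98.1 and 106 CPM in control and 85.1, 55.1 and 57.6 CPM in knockout libraries. Its groups did not overlap, as in 17.2% of all genes with the lower values in knockout, and its log2 fold change was -1.18 (SE 0.36, adjusted p = 0.0795), or -0.64 without control replicate 1 (adjusted p = 0.138). Dbp shares 539 exon bases with Sphk2 on the other strand, a gene that read 31.5 to 40.4 CPM.

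Animals of the same group differed widely in the clock genes, and replicate 1 stood apart in both groups. In 7 of the 10 genes (Per1, Per2, Cry1, Cry2, Nr1d1, Nr1d2 and Dbp) replicate 1 was the highest library of both groups, as it was for 18.1% of all genes tested. The ratio of the highest to the lowest library within control islets was 5.99 for Per1, 4.67 for Nr1d1, 3.74 for Cry2 and 2.49 for Dbp, and it was 1.36 for Per3 and 1.11 for Clock. As deviations of log2 CPM from the group mean, Arntl ran against the other members in all 9 pairings, with Pearson r from -0.971 with Nr1d2 to -0.382 with Clock. The 28 pairings among the 8 genes other than Arntl and Clock gave r from 0.288 to 0.975. These r describe 6 libraries after the group means of each gene were taken out, and all genes share the same library sizes. Clock gave r from -0.421 to 0.714 with the same 8 genes.

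**Figure D3:**
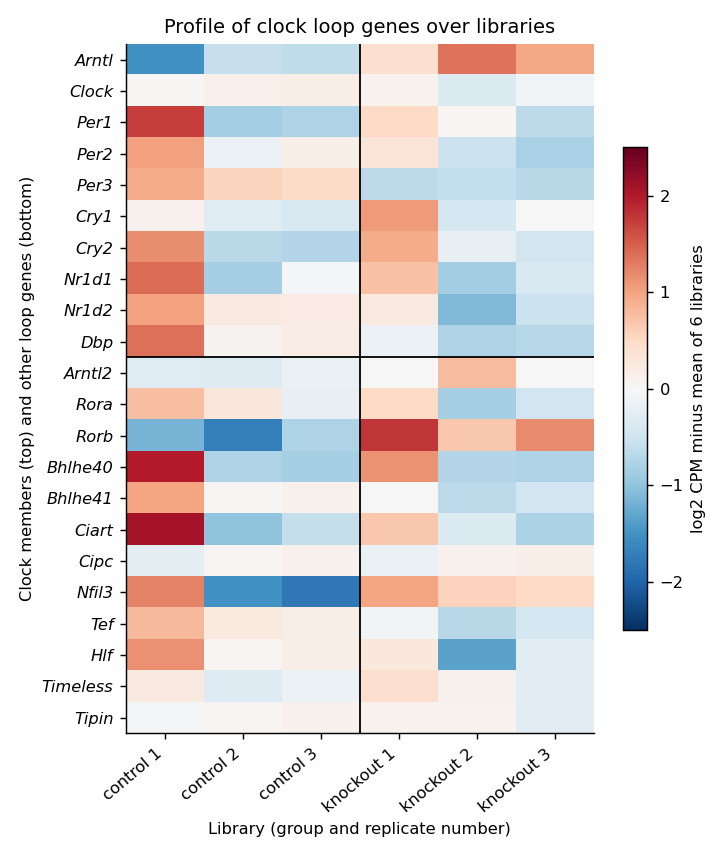
log2 CPM minus the mean of the 6 libraries (colour, red higher and blue lower) for the 10 clock members above the line and 12 other loop genes below it, in control and knockout libraries (columns). Arntl and Rorb are higher in the knockout columns and Per3 in the control columns, while Per1, Cry2, Bhlhe40 and Ciart are highest in replicate 1 of both groups.

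With the replicate number as a block, which takes out what libraries of the same number share, 3 more clock genes were called lower. Per2 (log2 fold change -0.69, SE 0.15, adjusted p = 0.0263), Nr1d2 (-0.95, SE 0.17, adjusted p = 0.0165) and Dbp (-1.08, SE 0.18, adjusted p = 0.0120) joined Per3 (-1.30, adjusted p = 0.0036), and Arntl stayed higher (1.84, SE 0.20, adjusted p = 0.00396, all edgeR). This fit called 14.8% of all genes, 6.93% higher and 7.86% lower, so that 4 of 10 lower genes stand beside that background. Within the numbers 1 to 3, knockout minus control was -1.52, -0.83 and -0.88 for Dbp, -0.78, -1.33 and -0.75 for Nr1d2, and -0.69, -0.41 and -0.97 for Per2, in log2 CPM. For Per1 the differences were -1.23, 0.90 and 0.12, and for Cry2 -0.25, 0.47 and 0.26, so these did not share a sign. DESeq2 called Dbp (adjusted p = 0.00548) and Nr1d2 (0.0472) lower without a block, beside Per3 and with Arntl higher, where 14.3% of genes were called, 6.41% higher and 7.87% lower. Without the low count filter edgeR called Dbp and Per3 lower (Dbp adjusted p = 0.0145). That fit called 3.6% of genes lower, 1123 of 31158, against 960 of 16430 with the filter. The authors' deposited table lists Per3 at a log2 fold change of -1.34 (adjusted p = 8.78e-11), Arntl at 1.66 (2.42e-05) and Dbp at -1.01 (0.00637). The adjusted p of the other 7 genes there runs from 0.0847 for Nr1d2 to 0.996 for Cry2. Per1 and Nr1d1 stood there at -0.072 and -0.081, against -0.54 and -0.49 in DESeq2 here, while Per3 was alike (-1.34 and -1.32). The sources used here do not say whether the deposited fold changes were scaled down, so the sizes may not be the same measure.

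**Figure D4:**
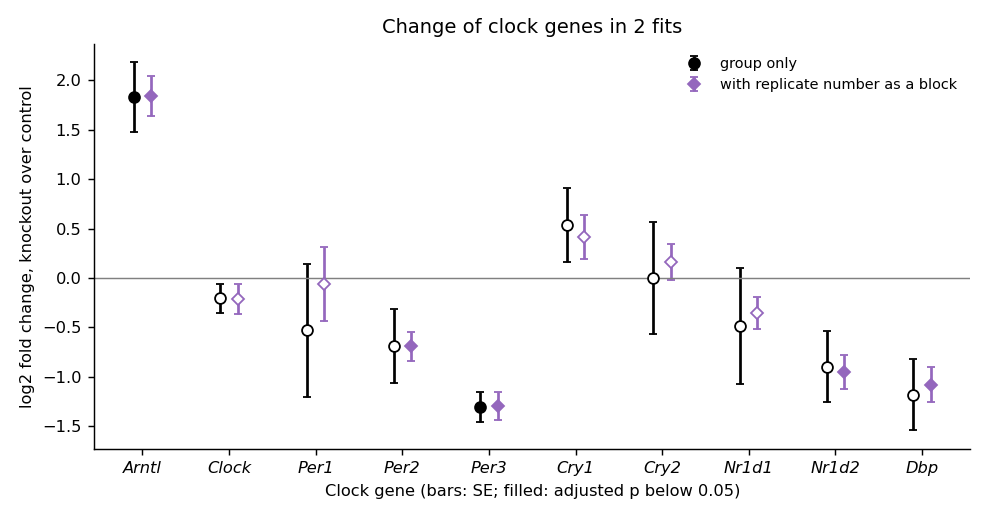
log2 fold change of knockout over control islets (vertical axis) with its SE for each clock gene, as circles from the fit with group only and as diamonds from the fit with the replicate number as a block; filled symbols have an adjusted p below 0.05. Arntl at 1.83 and Per3 at -1.31 are filled in both fits, and Per2, Nr1d2 and Dbp are filled with the block.

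Levels were compared between genes on the length-scaled TPM of the deposited tables. In control islets Dbp stood at 107 ± 63.9 TPM, Nr1d2 at 63.8 ± 27.5, Cry2 at 59.9 ± 52.6, Nr1d1 at 54.6 ± 44.3 and Per1 at 41.1 ± 45.3 TPM (SD, n = 3 each). Then came Clock at 13.7 ± 1.38, Per2 at 12.5 ± 6.19, Per3 at 10.8 ± 2.64, Cry1 at 4.27 ± 2.30 and Arntl at 1.01 ± 0.303 TPM. From Dbp down to Per3 the ranges of neighbours in this order overlapped, whereas Per3 lay above Cry1 and Cry1 above Arntl in every control library. In knockout islets Arntl read 4.34 ± 0.922 TPM and Per3 5.13 ± 1.15 TPM, beside 6.95 ± 4.88 TPM for Cry1. The gap between Arntl and its partner gene Clock was thus 13.7 against 1.01 TPM in control and 15.3 ± 5.08 against 4.34 TPM in knockout islets.

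Of 14 other genes of the loop 13 were measured, with a median log2 fold change of -0.38, and 1 was called (9.95% of all genes). Without control replicate 1 Npas2 also passed the filter, and the median of all 14 was 0.14. The same 13 genes then had a median of -0.046, the value of Cipc. The sign of 0.14 thus came from adding Npas2, which lay higher in the knockout libraries. The called gene Rorb, which encodes a ROR receptor, passed the filter on low counts only through the knockout libraries, so its call is no support for a change of the list. It rose from 0.167, 0.0861 and 0.246 CPM in control to 1.89, 0.819 and 1.20 CPM in knockout libraries in edgeR, by 2.94 on the log2 scale (SE 0.51) at an adjusted p of 0.0118, a change at very low levels. The more abundant Rora (66.6 ± 21.6 and 47.7 ± 24.4 CPM) was not called, with a log2 fold change of -0.48. Tef and Hlf, relatives of Dbp, and Bhlhe41, which encodes an E-box repressor, did not pass the test, with log2 fold changes of -0.80 (adjusted p = 0.0666), -0.85 (0.238) and -0.80 (0.118). With the replicate block all 3 were called lower (adjusted p = 0.0157, 0.0287 and 0.0158). They were the 3 of the 13 genes called lower, beside 7.86% of all genes called lower in that fit. The block also called Rorb higher (adjusted p = 0.0103), with the same limit from the filter. Nfil3, which competes with Dbp for D-boxes, read 65.2, 9.60 and 7.97 CPM in control and 54.5, 41.3 and 38.8 CPM in knockout libraries. Its groups overlapped through control replicate 1, and without that library its log2 fold change went from 0.70 (adjusted p = 0.57) to 2.35 (adjusted p = 0.00441); it was chosen after its values were seen. Arntl2, a relative of Arntl, read 2.49 ± 0.161 and 3.75 ± 1.28 CPM (adjusted p = 0.262).

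Kinases, ubiquitin ligases and other regulators of clock proteins held 0 called genes of 20 (median log2 fold change -0.12), with 1 gene, Skp1a, at an unadjusted p below 0.05 and 0 called by DESeq2. Over all genes 27.5% had an unadjusted p below 0.05, edgeR called 9.95% and DESeq2 14.3%. The 4 genes of smallest p were the ligase subunit Skp1a (0.39, adjusted p = 0.136), the ligase Btrc (-0.30, 0.229), the scaffold Cul1 (-0.22, 0.384) and the kinase Dyrk1a (-0.35, 0.388). Chromatin cofactors of the clock also held 0 called genes of 20 (median -0.22), with 3 at an unadjusted p below 0.05, against the same 27.5%. Groups did not overlap in 5 of the 20, 4 with lower and 1 with higher values in knockout, beside 34.8% of all genes. The H3K4 methyltransferase gene Kmt2c (-0.48, adjusted p = 0.0613) and the acetyltransferase gene Ep300 (-0.41, 0.0645) lay lower in every knockout than in any control library, as did Ncor1 (-0.35, 0.207) and the remodeller gene Chd4 (-0.33, 0.273; named for its place in this count), and the deacetylase gene Hdac1 lay higher (0.32, 0.18). DESeq2 called Kmt2c and Ep300 lower (adjusted p = 0.0167 and 0.0215). With each library left out in turn, edgeR called 0 genes of either list. The median of the regulators was 0.036 without knockout replicate 2 and -0.047 without control replicate 1, and that of the cofactors was -0.12 without control replicate 1.

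**Figure D5:**
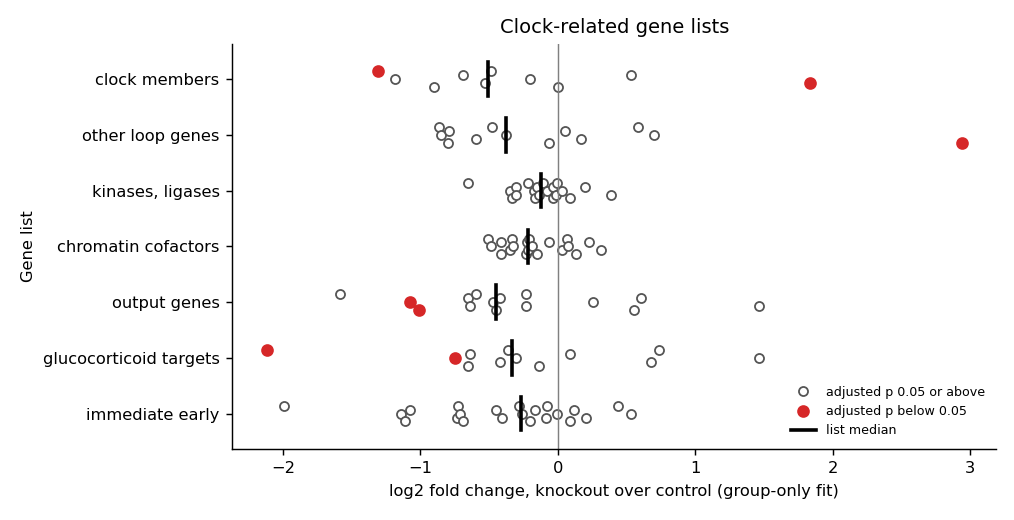
log2 fold change of knockout over control islets (horizontal axis) for each measured gene of the clock members and 6 related lists (rows), with filled points for an adjusted p below 0.05 and bars for list medians. The 2 filled clock members lie on opposite sides of 0, and the medians run from -0.51 for the clock members to -0.12 for kinases and ligases. Without control replicate 1 those of the clock members (0.056), glucocorticoid targets (0.39) and immediate early genes (1.03) lie above 0. That of the other loop genes drawn here is then -0.046.

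Of 15 measured output genes, whose RNA is known to follow the clock in other tissues, 2 fell and 0 rose, beside 5.84% of all genes called lower. Their median was -0.45, and -0.11 without control replicate 1. Por, the electron donor of cytochrome P450 enzymes, had a mean of 191 ± 31.1 CPM in the control group against 91.0 ± 4.25 in the knockout group (SD, n = 3 each), and fell by 1.07 on the log2 scale at an adjusted p of 0.00602 (edgeR). Marveld1 fell by 1.01 on the log2 scale (SE 0.21, adjusted p = 0.0217), and 2 of 6 fits without 1 library called it. Lonrf3 (-1.58, adjusted p = 0.0504) and the cell cycle inhibitor Cdkn1a (1.47, 0.111), which is in the next list too, were not called. The replicate block called Cdkn1a higher (1.68, adjusted p = 0.00759). Without control replicate 1, 4 output genes were called, beside 5.77% of all genes in that fit. Cdkn1a at 2.34 (adjusted p = 0.0110) and Lonrf3 at -1.83 (0.0445) were among them. Without control replicate 2, control replicate 3, knockout replicate 1 or knockout replicate 2, 1 output gene was called. Fits with 1 library fewer called 4.36 to 7.88% of all genes.

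Glucocorticoids set the phase of clocks outside the brain, and of 12 of their known targets 2 fell and 0 rose, beside 5.84% of all genes called lower. Their median was -0.33, and 0.39 without control replicate 1. Pdk4, a brake on pyruvate oxidation, read 74.6, 41.3 and 59.4 CPM in control and 11.3, 12.0 and 17.0 CPM in knockout libraries, and fell by 2.12 on the log2 scale (SE 0.25) at an adjusted p of 0.00337 in edgeR. Fkbp5, a receptor cochaperone, read 109.6, 109.98 and 110.01 CPM in control and 58.8, 68.1 and 69.3 CPM in knockout libraries, and fell by 0.75 on the log2 scale (SE 0.13) at an adjusted p of 0.0107. For both genes the groups lay apart, and replicate 1 did not lead the knockout group as it did for Per1 or Nr1d1. It did lead the control group for Pdk4. Klf9, Errfi1, Mt1, Mt2, Zbtb16 and Cdkn1a of this list had replicate 1 highest in both groups, and the other targets did not. Tsc22d3 (-0.42, adjusted p = 0.158) was not called. Without control replicate 1, 4 genes of this list were called, Sgk1 and Cdkn1a beside Pdk4 and Fkbp5. That fit called 5.77% of all genes.

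The 22 immediate early genes, which cells switch on within minutes of a stimulus, differed widely between libraries. EdgeR and DESeq2 called 0 of them, with 0 at an unadjusted p below 0.05. Over all genes edgeR called 9.95% and DESeq2 14.3%, and 27.5% had an unadjusted p below 0.05 in edgeR. Their median log2 fold change was -0.27, and 1.03 without control replicate 1. Their summed level was 11916, 343 and 4481 CPM in control and 4195, 4518 and 3166 CPM in knockout libraries. Control replicate 2 was low and control replicate 1 high. The genes of smallest p were Crem (0.53, adjusted p = 0.184), Arc (-1.99, 0.370), Npas4 (-1.11, 0.550) and Nr4a1 (-1.08, 0.608). Without control replicate 1 the signs of Arc, Npas4 and Nr4a1 turned (0.50, 0.99 and 1.74) and Crem was called (0.86, adjusted p = 0.0222). That fit called 5.77% of all genes. Over the 6 libraries, the median deviation of these genes gave r of 0.887 with Nr1d1, 0.880 with Dbp, 0.870 with Per1, 0.823 with Per2, 0.811 with Cry2, 0.753 with Per3, 0.609 with Nr1d2, 0.425 with Cry1, -0.103 with Clock and -0.757 with Arntl, as a description. That median deviation was 2.38 in control replicate 1 and -2.22 in control replicate 2, and -0.442 to 0.623 in the other libraries. In knockout replicate 1 Fos, Jun, Egr1, Ier2, Dusp1 and Klf2 were the lowest of their group. All others of the list except Junb were the highest there. Per1 and some immediate early genes respond to the same stimuli, and their part in the values of the clock genes was not tested.

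Among 11020 other genes of at least 5 CPM, those with the highest Pearson correlation of log2 CPM over the 6 libraries were Mrpl16 (0.995), Abhd17a (0.994) and Fn3krp (0.994) for Arntl, and Grk3 (0.995), Bhlhe41 (0.993) and Spsb1 (0.992) for Dbp. With 6 libraries many genes reach such values: 260 exceeded 0.95 with Arntl and 93 with Dbp. Of the 6 named, Bhlhe41 belongs to the clock loop, and Abhd17a was the 1 gene called (log2 fold change 0.66, adjusted p = 0.0331, edgeR). Over all genes edgeR called 9.95%. The groups did not overlap in Arntl or Dbp, so a group difference was built into the choice of genes like them.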

How the data were processed

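Islet RNA of 3 control and 3 knockout mice was analysed, 1 mouse per library. Per the submitters' processing notes, Trimmomatic, Salmon and DESeq2 were used on GRCm38 and mm10. The sources used here give no versions, annotation or settings. The authors deposited per library the Salmon estimated counts, TPM and lengths per transcript, per the file headers. They also deposited their own comparison, with a log2 fold change, p-value and mean scaled signal per gene, per the file headers. Scaled values per gene were not used.

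Transcripts were matched to GENCODE vM21 genes by identifier without version (139852 of 140948). For each gene the estimated counts were added up, rounded, filtered with filterByExpr (minimum count 10) and scaled by TMM. Testing used edgeR 4.0.16 in R 4.3.3, by its quasi-likelihood method, group being the only term, two-sided, with Benjamini-Hochberg adjustment over all genes and a threshold of 0.05. CPM use TMM-scaled sizes, with a prior count of 2 in log2. The SE is the size of the change over the root of F. Alternatives were DESeq2 1.42.0, its size factors, limma-voom (limma 3.58.1), no filter, a length offset, the replicate block, scaling without Gm42418 and leaving out each library. Depth was 17131515 to 25354384 estimated reads, and Arntl, at 43 to 275 reads per library, held the fewest of the members in sum.

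Groups share replicate numbers. Deviations from group means correlated at 0.523, 0.125 and 0.178 between same-numbered libraries over 10534 genes, all above the 0.1 set for pairing. Pairs of different numbers ran from -0.399 to 0.224. That highest value, from control 3 and knockout 2, exceeded the same-number values of 2 and 3. Only number 1 was thus set apart by the data, and for numbers 2 and 3 the block rests on the numbering. What a number marks is not in the labels. The members and lists were chosen with earlier results of these data known, so their counts are descriptions. Named were the members, Dpy30, each called gene and the 4 genes of smallest p in each related list, and the 3 genes most like Arntl and Dbp. The other loop genes with values, Gm42418, Npas2, Ptf1a, Thra, Sphk2, Chd4 and Sgk1 were added. So were the glucocorticoid targets and immediate early genes named for their level in replicate 1.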

Additional observations from a re-analysis of the deposited data

How the results depend on the processing

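Per3 kept its direction and call in all 13 alternatives, with log2 fold changes of -1.40 to -1.17 and adjusted p from 1.42e-10 to 0.0209, and Arntl kept its direction in all 13 and its call in 10 (1.58 to 2.05, adjusted p from 7.98e-06 to 0.0593). DESeq2 called 2534 genes in place of 1634, and leaving out 1 library left 737 to 1330. The number of clock members called higher was 0 to 1 and lower 1 to 1 in the fits that left out a library; 3 were called lower with DESeq2, 2 without the low count filter and 4 with the replicate block. Of the other loop genes 3 were called with DESeq2, 2 without the filter, 4 with the replicate block and 1 to 2 with a library left out. Each of these counts includes Rorb. Of chromatin cofactors 2 were called with DESeq2, and of output genes 4 without the filter and 1 to 4 with a library left out. Leaving out a library gave 2 to 4 glucocorticoid targets and 0 to 1 immediate early genes. The direction of Cry2 turned with DESeq2 size factors in edgeR (-0.0043), DESeq2 (-0.0037) and no filter (-0.011), where both values are near 0. With a library left out, the range of log2 fold changes crossed 0 for Cry2 (-0.55 to 0.92), Per1 (-0.93 to 0.85), Nr1d1 (-1.10 to 0.36), Cry1 (-0.034 to 0.81), Arc (-2.84 to 0.50), Npas4 (-2.22 to 0.99) and Nr4a1 (-2.18 to 1.74); beyond fewer samples, the cause was not tested. Beyond calling Per2, Nr1d2 and Dbp lower, the replicate block changed no call among the clock members. Low counts limit Arntl (43 to 275 reads per library) and Rorb.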

Other observations

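Transcript use was summarised for other clock genes. Coding transcripts held 95.4 to 99.3% of Nr1d1 reads, 91.8 to 94.0% of Nr1d2 reads and 98.2 to 99.1% of Clock reads over the 6 libraries, and 74.5 to 86.0% of Dbp reads, the rest of which lay in transcripts with a retained intron. Within Clock, the coding transcript Clock-205 held 58.3% ± 2.60 of reads in control and 50.1% ± 12.2 in knockout islets (SD, n = 3 each). Knockout replicate 2, the library rich in Gm42418, was the lowest for that share. The main transcript of Dbp, Dbp-201, held 53.3% ± 3.89 and 53.2% ± 3.80 of its reads.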
